A study of Mus musculus with 6 samples.

Results

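Aminoacyl-tRNA synthetases are the enzymes that join each amino acid to its transfer RNA. They were chosen here by gene symbol: protein coding genes named Farsa, Farsb, Eprs, or a single amino acid letter followed by ars with an optional ending of 1, 2 or l2. The rule found 38 genes of the 32285 in the table, 21 cytosolic and 17 mitochondrial, the mitochondrial ones being those with the ending 2 (Tarsl2 was counted as cytosolic). The libraries measured messenger RNA in progenitor cells from the neocortex of wild-type (WT) mouse embryos at E10.5. Dissociated cells were plated, and about 2 h later GSK2837808A, which blocks lactate dehydrogenase (3 libraries, GSK), or the same volume of its solvent DMSO (3 libraries, DMSO) was added. Collection followed about 24 h after that. The labels give the inhibitor at 100 mM, a concentration that could not be checked. About 1000 CD133-positive, DAPI-negative cells were then sorted for each sample, and Smart-seq2 libraries were made from their RNA. Labels do not state whether replicates came from separate embryos or cultures, so the p-values here reflect variation among these libraries alone, and that variation could be technical.

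Cells keep separate synthetases for the ribosomes of the cytosol and for those inside mitochondria. All are encoded in the nucleus, and for most amino acids the genes of the pair are distinct. Gars and Kars are exceptions, each supplying both compartments from a single gene. No mitochondrial glutaminyl enzyme is made, and mitochondrial glutaminyl-tRNA is formed from the product of Ears2 by an amidotransferase. Several cytosolic enzymes sit together in the multisynthetase complex, and many are known targets of ATF4, the transcription factor that raises amino acid supply genes when translation is stressed.

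The 6 libraries held 7187089 to 10224348 reads, recovered from the normalised values as whole reads, and GSK replicate 1 stood apart from the other GSK libraries on the second principal component (11.4% of variance). Genes that overlap ribosomal RNA took 23.2 to 26.1% of reads in GSK and 20.2 to 21.6% in DMSO. With library totals that left out these and the globin genes, an analysis chosen after seeing the data, 4 synthetases were again called higher and 12 lower. Radial glial markers were present in all libraries, and 7 of 8 fell, with summed levels of 2541 to 2829.9 normalised reads in GSK and 9783 to 10339.9 in DMSO. The eighth, Vim, averaged 9486 in GSK and 10127 in DMSO and did not pass. Markers of other cells differed as well. Erythroid markers rose for 8 of 9 tested genes, with sums of 183879 to 274143 in GSK and 2402 to 20617 in DMSO. Myeloid markers rose for 5 of 9 (sums of 551 to 1245 in GSK and 70.5 to 358 in DMSO) and neuron markers for 4 of 8, with 1 lower (sums of 20173 to 24823 in GSK and 6854 to 13852 in DMSO). Intermediate progenitor markers rose for 5 of 6 (sums of 1749 to 2446 in GSK and 893 to 1213 in DMSO). Mesenchyme markers fell for 2 of 6, with sums of 16207 to 25397 in GSK and 26484 to 33438 in DMSO, which did not overlap. Beside these marker counts, 17.0% of all tested genes were called higher and 19.1% lower. Library values of GSK and DMSO were apart for 47.2% of tested genes. Marker counts near these shares are no result about the cell type. Endothelial markers summed to 40.3 to 68.3 in GSK and 42.5 to 77.1 in DMSO, and no listed marker was at 0 in every library. The part of these cell types in the synthetase results was not tested, and in bulk samples fewer cells of a type and less RNA per cell cannot be told apart.

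Synthetase transcripts moved in both directions. All 38 passed the filter of a mean of at least 10 normalised reads. Of them 4 rose and 12 fell in GSK libraries, and 22 did not pass the test (limma on log2(value + 1), Benjamini-Hochberg adjusted p below 0.05 over all tested genes). The share called was 42.1%, against 36.1% of all 15073 genes tested. Lower calls made up 31.6% of the synthetases and 19.1% of all tested genes, and the 4 higher calls compare with a background of 17.0%. The median log2 fold change was -0.08 for the synthetases and 0.01 for all tested genes. Among the cytosolic enzymes 3 rose and 6 fell (median -0.07), and among the mitochondrial ones 1 rose and 6 fell (median -0.11). With libraries scaled to equal totals, 2 synthetases were called higher and 14 lower. Higher synthetase calls numbered 2 without DMSO replicate 1 or without GSK replicate 3, and 1 without GSK replicate 2, which was cytosolic. Without DMSO replicate 2 the cytosolic falls numbered 3. The median over all synthetases was -0.05 without GSK replicate 1, -0.16 without GSK replicate 3 and -0.15 with equal totals. The cytosolic median was -0.01 without GSK replicate 1, -0.11 without GSK replicate 2, -0.13 without GSK replicate 3, -0.04 without DMSO replicate 2, -0.11 without DMSO replicate 3 and -0.13 with equal totals. The mitochondrial median was -0.26 without GSK replicate 1, -0.24 without GSK replicate 3 and -0.17 without DMSO replicate 1. In the main analysis Vars was the only called synthetase with at least a 2-fold change, against 6.91% of tested genes called at least 2-fold lower and 5.04% called at least 2-fold higher. That count depended on the setting: with equal totals Ears2 (-1.05) and Aars2 (-1.02) were also called beyond 2-fold, as they were without DMSO replicate 1 (-1.05 for Ears2 and -1.07 for Aars2). Ears2 also passed without GSK replicate 2 (-1.05), GSK replicate 3 (-1.08) or DMSO replicate 3 (-1.02), and Aars2 lay just past the limit without GSK replicate 1 or without GSK replicate 2. Library values of GSK and DMSO did not overlap for 17 of the 38 synthetases, 5 with GSK above and 12 with GSK below. Among all tested genes 47.2% had groups apart (22.8% above and 24.4% below). The total for the synthetases was near that share and is no result about them.

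**Figure D1:**
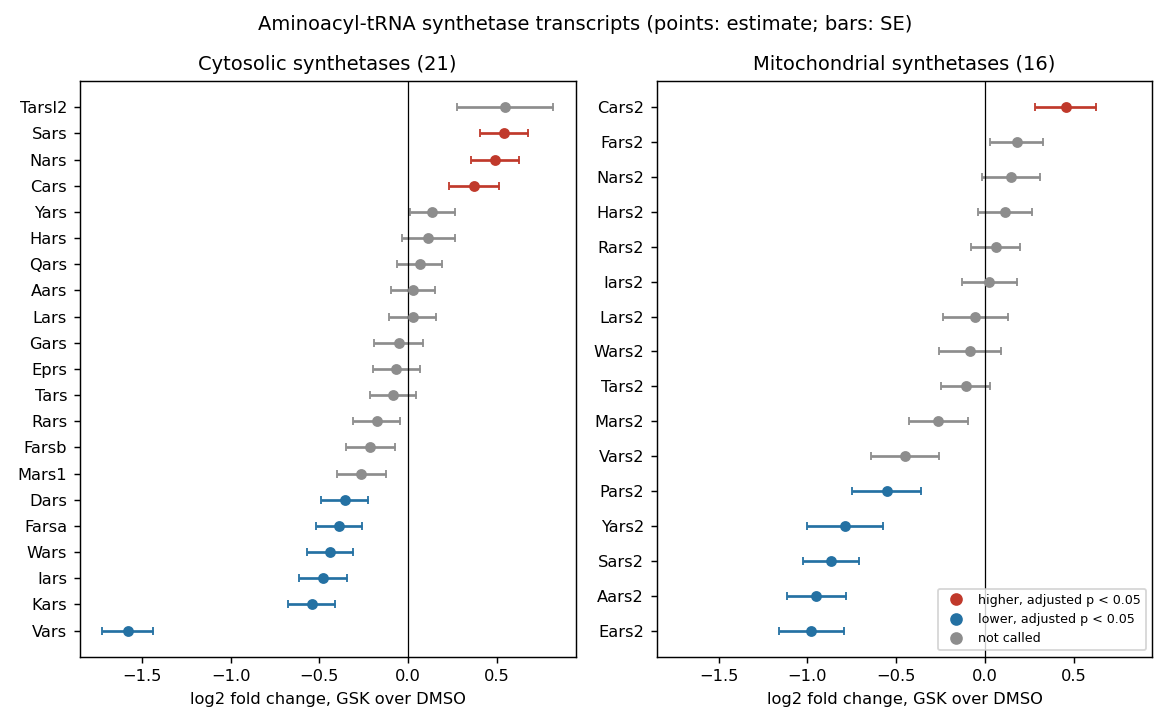
Log2 fold change of each synthetase transcript, GSK over DMSO, on the log2(value + 1) scale (x axis), with standard error bars, for 21 cytosolic (left) and 16 mitochondrial (right) genes. Vars lies at -1.58, the 4 lowest mitochondrial genes shown lie between -0.98 and -0.79, and the called rises lie between 0.37 and 0.54.

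Vars, which encodes the cytosolic valyl-tRNA synthetase (chromosome 17, 35000987 to 35016322, GRCm38), had 323, 314 and 269.5 normalised reads in GSK libraries, against 744, 961 and 1029.7 in DMSO libraries. Every GSK value was less than the lowest DMSO value by a wide margin. The mean was 302 ± 28.7 in GSK and 911 ± 149 in DMSO (SD, n = 3 each), which gave -1.58 ± 0.14 (SE) on the log2 fold scale (limma adjusted p = 4.7e-08). The call held in all 17 alternative analyses, with adjusted p from 8.09e-24 to 3.57e-06.

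The other 5 cytosolic falls were smaller. Kars, the lysyl enzyme of both compartments (chromosome 8, 111993443 to 112011323), had 1116, 1337 and 1314 normalised reads in GSK libraries, against 1914, 1911 and 1661 in DMSO libraries. The groups did not overlap, and the log2 fold change was -0.54 ± 0.13 (SE; limma adjusted p = 0.00271). Iars, the isoleucyl enzyme, had 954, 787 and 673 normalised reads in GSK libraries, against 1085, 1163 and 1084.5 in DMSO libraries, a log2 fold change of -0.48. Wars, the tryptophanyl enzyme, whose shortened forms are known in human cells as inhibitors of blood vessel growth, had 688, 812 and 896 normalised reads in GSK libraries, against 1052, 1092 and 1093 in DMSO libraries, a log2 fold change of -0.44. Its DMSO values were close together, and the more widely spread GSK values all lay below them. Farsa, the catalytic subunit of the phenylalanyl enzyme, had 668, 748 and 818 normalised reads in GSK libraries, against 946, 1042 and 931 in DMSO libraries, a log2 fold change of -0.39. Dars, the aspartyl enzyme, had 698, 781 and 926 normalised reads in GSK libraries, against 1065, 1030.2 and 968 in DMSO libraries, a log2 fold change of -0.36. GSK and DMSO values of both genes were apart, with a narrow gap for Dars between GSK replicate 3 and DMSO replicate 3. Kars and Wars held their calls in all 17 alternatives. Iars lost its call without DMSO replicate 2 (adjusted p = 0.0515; from 6.24e-05 to 0.0515 over the alternatives). The Farsa call was absent when GSK replicate 2 or either of DMSO replicates 1 and 2 was left out (adjusted p from 0.00436 to 0.117 over the alternatives). Dars lost its call in 6 alternatives, namely without any filter on low values and without each library except GSK replicate 3 (adjusted p from 0.00851 to 0.134 over the alternatives).

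3 cytosolic synthetases rose. Sars, the seryl enzyme (chromosome 3, 108424865 to 108445209), which is known in zebrafish to restrain Vegfa expression, had 1971, 2393 and 2433 normalised reads in GSK libraries, against 1646, 1623 and 1395 in DMSO libraries. The mean was 2266 ± 256 in GSK and 1555 ± 139 in DMSO (SD, n = 3 each), a log2 fold change of 0.54 ± 0.14 (SE; limma adjusted p = 0.00373). Every GSK value was above every DMSO value, and the call held in all 17 alternatives. Nars, the asparaginyl enzyme, had 1342, 1664 and 1649 normalised reads in GSK libraries, against 1238, 1081 and 993 in DMSO libraries, a log2 fold change of 0.49 (limma adjusted p = 0.00732). Its groups were apart, and it lost its call without GSK replicate 2 (adjusted p = 0.0566; from 8.44e-05 to 0.0566 over the alternatives). Cars, the cysteinyl enzyme, had 567, 654 and 787 normalised reads in GSK libraries, against 561, 532 and 452 in DMSO libraries, a log2 fold change of 0.37 (limma adjusted p = 0.0476). The groups were barely apart, between GSK replicate 1 and DMSO replicate 1. Cars lost its call in 7 alternatives, including every one that left out a library other than GSK replicate 1 (adjusted p from 0.00265 to 0.204 over the alternatives).

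**Figure D2:**
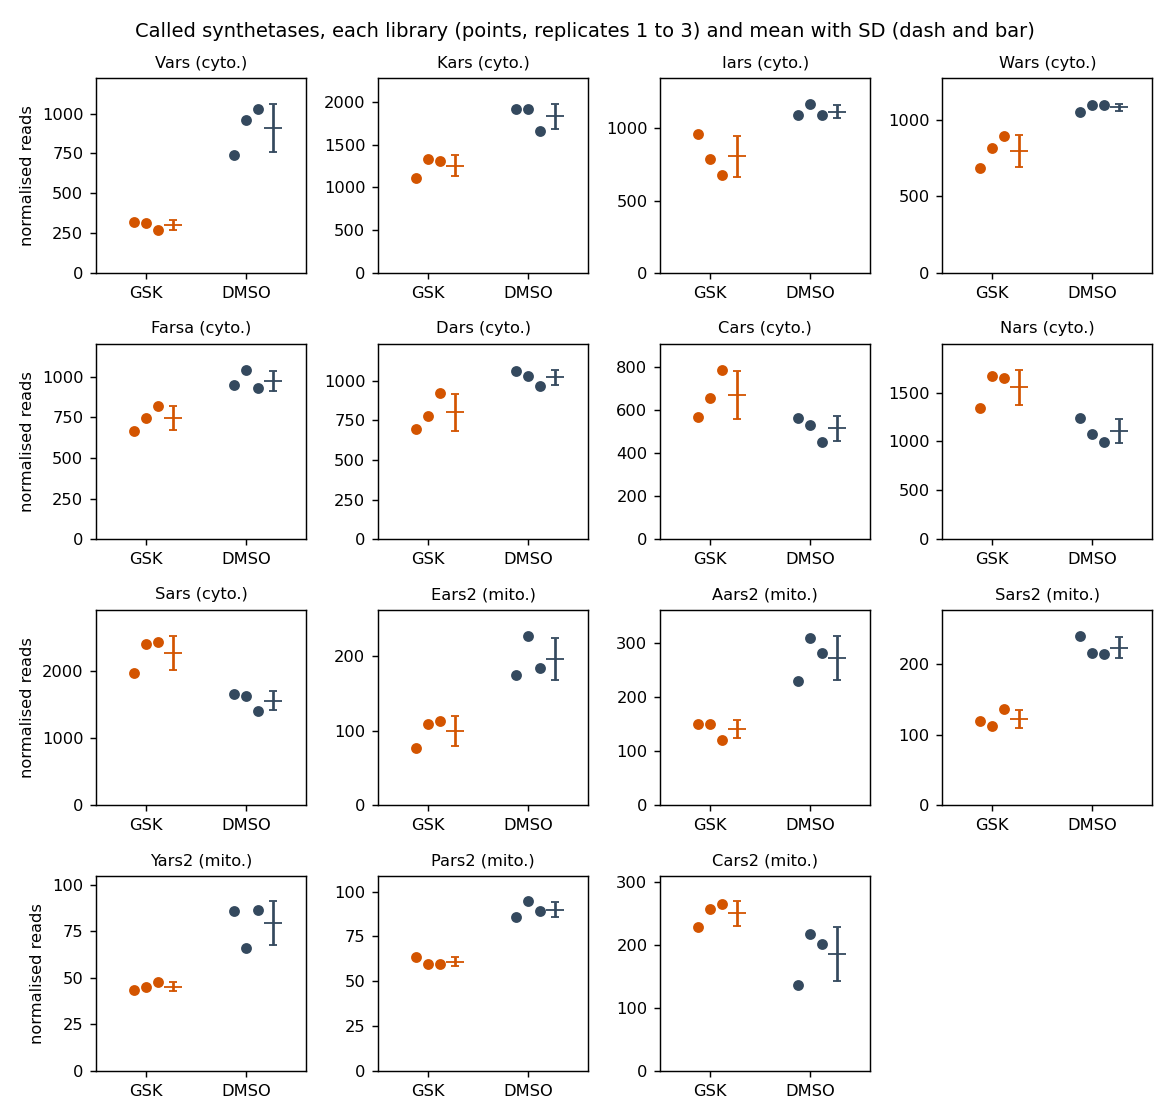
Normalised reads (y axis, from 0) in each library for 15 of the called synthetases, GSK left and DMSO right in each panel. Points are replicates 1 to 3 from left to right, and the dash and bar give the mean and SD. In every panel the GSK points lie wholly above or below the DMSO points, with the smallest gap for Cars.

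The remaining 12 cytosolic enzymes did not pass the test. Their log2 fold changes ran from -0.26 for Mars1, the methionyl enzyme, to 0.55 for Tarsl2, a second cytosolic threonyl enzyme. Tarsl2 was the least abundant of the cytosolic group, with 36.4, 56.0 and 41.4 normalised reads in GSK libraries, against 27.6, 35.2 and 26.9 in DMSO libraries. Its groups did not overlap, but the standard error was 0.27 (limma adjusted p = 0.121). Eprs, which joins glutamyl and prolyl activities in a single protein, had 2173, 2458 and 2343 normalised reads in GSK libraries, against 2538, 2504 and 2255 in DMSO libraries, and these ranges overlapped. Gars, the glycyl enzyme of both compartments, had means of 1675 ± 243 in GSK and 1729 ± 136 in DMSO (SD, n = 3 each; limma adjusted p = 0.797). Aars, Lars, Qars and Eprs had log2 fold changes between -0.07 and 0.07. Yars and Hars stood at 0.14 and 0.11, and Tars, Rars and Farsb at -0.09, -0.18 and -0.21. Hars was called higher in an alternative without GSK replicate 1 (log2 fold change 0.30, adjusted p = 0.031; from 0.031 to 0.972 over the alternatives). Mars1 was called lower when libraries were scaled to equal totals (adjusted p = 0.0382; from 0.0382 to 0.388 over the alternatives). Mars1 shares 68 exon bases with Ddit3 on the other strand, a stress gene that averaged 529 normalised reads in GSK and 135 in DMSO, and the library type does not separate the strands. Aars shares 1326 exon bases on its own strand with Exosc6, which is listed at 0 in every library.

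The mitochondrial enzymes held a group of larger falls. Ears2, which charges mitochondrial tRNAs with glutamate (chromosome 7, 122037213 to 122067263), had 76.2, 109 and 114 normalised reads in GSK libraries, against 175, 228 and 184 in DMSO libraries. The log2 fold change was -0.98 ± 0.18 (SE; limma adjusted p = 0.000333). Aars2, the alanyl enzyme (chromosome 17, 45506841 to 45520843), had 151, 151 and 121 normalised reads in GSK libraries, against 229, 310.2 and 282 in DMSO libraries, a log2 fold change of -0.95 (limma adjusted p = 0.00013). Neither gene's groups overlapped. Sars2, the seryl enzyme, had 119, 112 and 137 normalised reads in GSK libraries, against 241, 216 and 216 in DMSO libraries, a log2 fold change of -0.87. Replicates of Sars2 were close in both groups, with an SD of 12.7 in GSK and 14.7 in DMSO. Yars2, the tyrosyl enzyme, had 43.2, 45.02 and 47.7 normalised reads in GSK libraries, against 86.0, 66.2 and 86.4 in DMSO libraries, a log2 fold change of -0.79. Pars2, the prolyl enzyme, had 63.7, 59.7 and 59.4 normalised reads in GSK libraries, against 86.0, 94.5 and 89.2 in DMSO libraries, a log2 fold change of -0.55. The groups of these 3 genes did not overlap either. Ears2, Aars2, Sars2 and Yars2 kept their calls in all alternatives in which they were tested, whereas Pars2 (limma adjusted p = 0.0306) lost its call in 7, including every one that left out a library other than GSK replicate 1 (adjusted p from 0.0216 to 0.107 over the alternatives).

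Cars2, the mitochondrial cysteinyl enzyme, was the only mitochondrial synthetase that rose. It had 229, 257 and 265 normalised reads in GSK libraries, against 137, 217 and 203 in DMSO libraries, a log2 fold change of 0.45 ± 0.17 (SE; limma adjusted p = 0.0446). The groups were apart, with DMSO replicate 1 well below the other DMSO libraries. The call was lost in 7 alternatives, among them edgeR (adjusted p = 0.0605), DESeq2 (0.0688), and the fits without DMSO replicate 1 (0.279), GSK replicate 2 (0.124) or GSK replicate 3 (0.0968), and adjusted p ran from 0.0208 to 0.279 over the alternatives. Cars2 shares 422 exon bases with Naxd on the other strand.

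Of the mitochondrial enzymes, 10 did not pass. Vars2, the valyl enzyme, had 76.2, 100.2 and 72.2 normalised reads in GSK libraries, against 97.7, 118 and 124 in DMSO libraries. GSK replicate 2 lay just above DMSO replicate 1, and the log2 fold change was -0.45 (limma adjusted p = 0.0732). With equal library totals it was called lower (adjusted p = 0.0443; from 0.0443 to 0.205 over the alternatives). Mars2 had a log2 fold change of -0.26, Tars2 of -0.11 and Wars2 of -0.08. Iars2, Rars2, Hars2, Nars2 and Fars2 lay between 0.03 and 0.18, and their standard errors were 0.14 to 0.16. Hars2 starts head to head with Hars on chromosome 18, and the pair share 195 exon bases on opposite strands. Iars2 shares 2034 exon bases with Rab3gap2 on the other strand. Fars2 shares 501 exon bases with Nrn1 and 115 with Lyrm4, both on the other strand. Nrn1 averaged 191 normalised reads in GSK and 110 in DMSO, and Lyrm4 341 in GSK and 250 in DMSO. The part of these overlaps in the Fars2 values was not tested.

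Lars2, the mitochondrial leucyl enzyme (chromosome 9, 123366927 to 123462666), had far more reads than any other mitochondrial synthetase. It had 7727, 5842 and 4292 normalised reads in GSK libraries, against 5087, 6273 and 6785 in DMSO libraries. The GSK libraries spanned the whole DMSO range, and the log2 fold change was -0.05 ± 0.18 (SE; limma adjusted p = 0.85). On the scale of reads per kilobase of transcript and scaled library (CPM per kilobase), its level averaged 174 in GSK and 183 in DMSO, whereas the other 16 mitochondrial genes lay between 1.94 and 25.7 in GSK and between 2.44 and 25.8 in DMSO. Bases 3278 to 3349 of the principal Lars2 transcript matched Gm15564, an antisense transcript of chromosome 16, at 71 of 72 positions. Other transcripts matched Lars2 less closely. Among them was AA474408, with 157 of 196 aligned positions over bases 3163 to 3349. Gm15564 had 197, 199 and 106 normalised reads in GSK libraries, against 125, 181 and 193 in DMSO libraries. Lars2 and Gm15564 were both lowest in GSK replicate 3 and next lowest in DMSO replicate 1, but Gm15564 had far fewer reads than Lars2. Their highest libraries differed, being GSK replicate 1 for Lars2 and GSK replicate 2 for Gm15564. Reads could be split or shared between such copies, so the level of Lars2 is uncertain, and the part of the shared stretches in it was not tested.

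**Figure D3:**
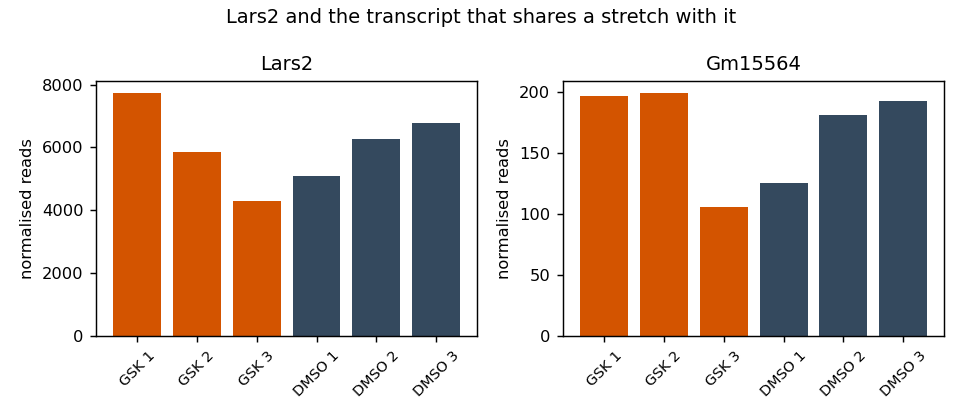
Normalised reads (y axis, from 0) of Lars2 and of Gm15564, which shares a stretch of 72 bases with it, in each GSK and DMSO library. Lars2 ranges from 4292 to 7727 and Gm15564 from 106 to 199, and both are lowest in GSK replicate 3.

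Levels as CPM per kilobase of the longest principal transcript placed the cytosolic enzymes above the mitochondrial ones at the median, though the groups overlapped. Tarsl2 was the lowest of all 38 genes (1.56 in GSK and 1.10 in DMSO), and Vars in GSK (8.24) was below several mitochondrial genes. Cytosolic genes had a median of 40.5 in GSK and 41.1 in DMSO, and mitochondrial genes without Lars2 a median of 5.64 in GSK and 9.61 in DMSO. Kars, at 107 in DMSO libraries, was the most abundant cytosolic transcript there, and stood at 70.0 in GSK libraries, where Gars (78.6) and Sars (71.0) were above it. Rars2 was highest of the mitochondrial genes other than Lars2, with 25.7 in GSK and 25.8 in DMSO. Summed normalised reads of the cytosolic enzymes were 19008, 21944.5 and 21977 in GSK libraries, against 22619.5, 23059 and 20924 in DMSO libraries, and the ranges overlapped. Sums of the mitochondrial enzymes without Lars2 were 3112, 3392 and 3528 in GSK libraries, against 3792, 3985 and 3585 in DMSO libraries, and did not overlap. This contrast depended on the scaling. As a percent of library totals the cytosolic sums were also apart, at 0.232, 0.234 and 0.239 in GSK and 0.272, 0.267 and 0.246 in DMSO. Those totals include the ribosomal-RNA-overlapping and globin genes.

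For partners that charge the same amino acid, the log2 ratio of cytosolic to mitochondrial transcript was taken in each library. For Sars over Sars2 it ran from 4.03 to 4.40 in GSK libraries and from 2.69 to 2.91 in DMSO libraries, the cytosolic gene being higher and the mitochondrial gene lower in GSK. For Aars over Aars2 it ran from 2.63 to 2.96 in GSK and from 1.66 to 2.10 in DMSO, and for Yars over Yars2 from 4.20 to 4.34 in GSK and from 3.05 to 3.71 in DMSO. In both pairs the cytosolic transcript did not pass while the mitochondrial one fell. Over all pairs, GSK ratios lay wholly above DMSO ratios in 7, lay wholly below them in 6 and overlapped in 5. Farsa and Farsb were each set against Fars2, and Eprs against both Ears2 and Pars2, so the ratios are not independent. No such share was computed for ratios of other genes. Among single tested genes 47.2% had groups apart, so the pair counts are a description and no result about the synthetases. Valine was among the pairs with lower ratios in GSK. Vars over Vars2 ran from 1.64 to 2.07 in GSK and from 2.91 to 3.05 in DMSO, and the cytosolic gene fell by 1.58 on the log2 scale. Farsa over Fars2 and Iars over Iars2 also had lower ratios in GSK, with mean differences of -0.57 and -0.50. So did Farsb over Fars2 (-0.39), Wars over Wars2 (-0.36) and Rars over Rars2 (-0.24). Cysteine was the only amino acid whose cytosolic and mitochondrial genes were both called higher, with log2 fold changes of 0.37 for Cars and 0.45 for Cars2. Each of these calls was lost in 7 alternatives. With equal library totals neither passed (limma adjusted p = 0.0892 for Cars and 0.0910 for Cars2). In the histidine pair the ratio averaged 0.78 in each group. With 3 libraries against 3 the smallest p of an exact permutation test on a ratio is 0.1, so these differences are given as values.

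**Figure D4:**
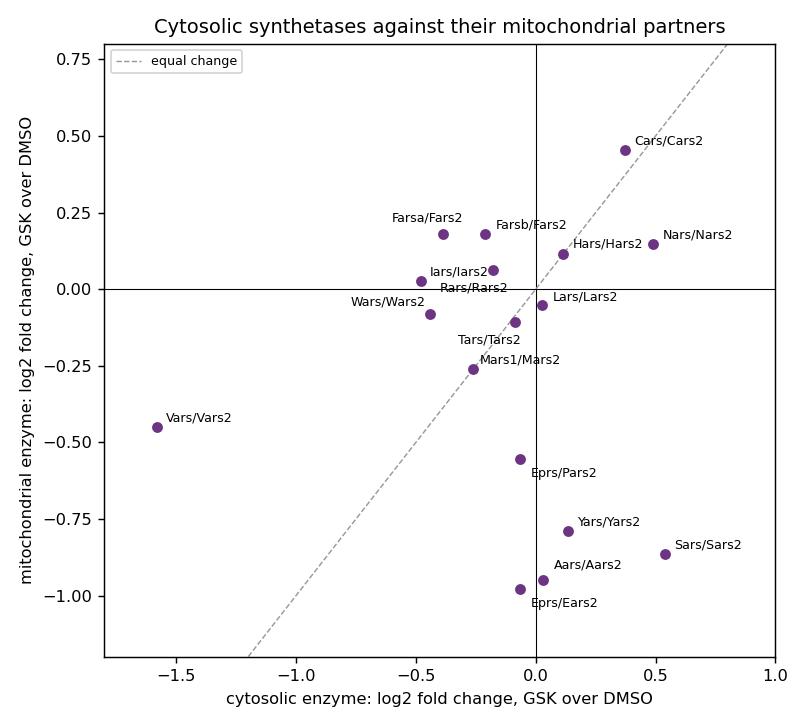
Log2 fold change, GSK over DMSO, of cytosolic synthetases (x axis) against their mitochondrial partners (y axis). Gars, Kars, Qars and Tarsl2 were not paired, and the pair of a synthetase not reported here is not drawn. Fars2 and Eprs enter repeatedly. The dashed line marks equal change. Sars/Sars2, Aars/Aars2, Yars/Yars2 and the Eprs pairs lie well below it. Vars/Vars2 lies above it at -1.58 and -0.45, as do Farsa/Fars2 and Iars/Iars2.

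The multisynthetase complex holds 8 of the cytosolic enzymes around 3 scaffold proteins. None of the 8 rose and 3 fell (Kars, Iars and Dars), with a median log2 fold change of -0.22. Of the 13 cytosolic enzymes outside it 3 rose and 3 fell (Vars, Wars and Farsa), with a median of 0.03, beside a background of 17.0% higher and 19.1% lower. The difference between enzymes inside and outside the complex was not tested. Without DMSO replicate 2, Iars and Dars inside it and Farsa outside it were not called lower. Among the scaffold genes, Aimp2 had 222, 313 and 345 normalised reads in GSK libraries, against 451, 481 and 462 in DMSO libraries, a log2 fold change of -0.69 (limma adjusted p = 0.00175). Eef1e1, which encodes the scaffold AIMP3, had 338, 469.5 and 519 normalised reads in GSK libraries, against 608, 568 and 546 in DMSO libraries, a log2 fold change of -0.40 (limma adjusted p = 0.0448). GSK values of both genes lay below all DMSO values. Aimp1 did not pass, with 515, 639 and 676 normalised reads in GSK libraries, against 509, 515 and 577 in DMSO libraries (log2 fold change 0.19). By catalytic class, counting Eprs in both, 1 of 10 cytosolic class I genes rose and 3 fell, and 2 of 12 class II genes rose and 3 fell.

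Many but not all genes of the ATF4 arm outside the synthetases rose. Of 23 listed, 13 rose and 3 fell, with a median log2 fold change of 1.00 against 0.01 over all tested genes, of which 17.0% rose and 19.1% fell. Atf4 itself had 2115, 2592 and 2713 normalised reads in GSK libraries, against 1017, 998 and 804 in DMSO libraries. Asns, which makes asparagine, averaged 1589 ± 233 in GSK and 486 ± 55.0 in DMSO (SD, n = 3 each), and the pseudokinase gene Trib3 averaged 617 ± 104 in GSK and 28.8 ± 11.7 in DMSO. Atf5, Slc7a3, Chac1 and Ddit3 rose by 2.996, 3.74, 3.29 and 1.96 on the log2 scale, and Nupr1 had the largest change among those that did not pass (0.38). The 3 that fell were Phgdh (-0.87), Psat1 (-0.64) and Ppp1r15b (-0.54). Of the 12 cytosolic synthetases known as ATF4 targets, 3 rose (Sars, Nars and Cars) and 2 fell (Iars and Wars), and the median was -0.01 with a range of -0.48 to 0.54. Of the 9 cytosolic synthetases not on that list none rose and 4 fell, with a median of -0.21. Among all tested genes 17.0% rose and 19.1% fell, and the difference between these 2 lists was not tested. Xpot, which exports tRNA from the nucleus and is also known as an ATF4 target, had 473, 324 and 285 normalised reads in GSK libraries, against 475, 662 and 542 in DMSO libraries, a log2 fold change of -0.65 (limma adjusted p = 0.00643). The nearest GSK and DMSO values of Xpot differed by about 1 read.

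**Figure D5:**
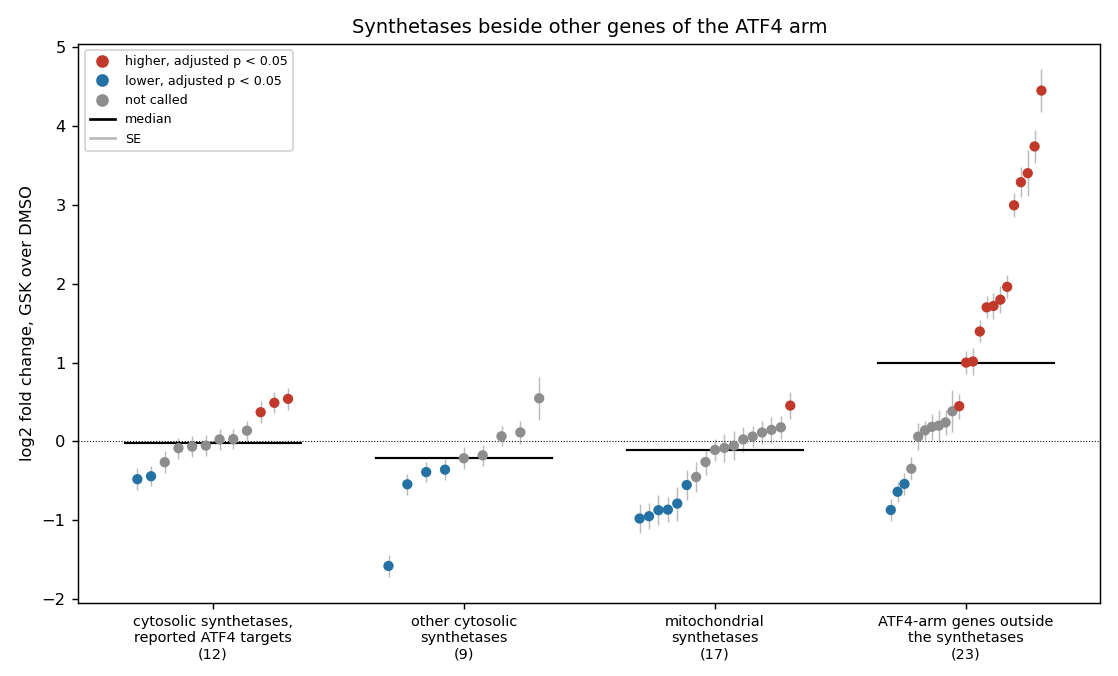
Log2 fold change, GSK over DMSO (y axis), of 12 cytosolic synthetases known as ATF4 targets, 9 other cytosolic synthetases, 17 mitochondrial synthetases and 23 genes of the ATF4 arm outside the synthetases. Points are genes with standard errors and black lines are medians, which stand at -0.01, -0.21, -0.11 and 1.00.

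ATF4 binds, together with a C/EBP partner, a composite site with the letters TGATGNAA, where N is any base. The RefSeq promoter table (GRCm38.p6) matched 28 of the 38 synthetases, and the 250 bases before each start were searched on both strands. The composite letters were found for 3 of these genes, among them Gars and Tars, and in 3.45% of all 32851 promoters. None of the 3 was called (log2 fold changes -0.05 for Gars and -0.09 for Tars). In the ATF4 arm outside the synthetases 6 of 19 matched genes held the letters, among them Asns, Chac1 and Atf3, whose log2 fold changes were 1.70, 3.29 and 3.40. The other 3 were Vldlr, which rose by 1.01, and Nupr1 (0.38) and Slc7a11 (0.19), which did not pass. The stretches are shown, as 30 bases 5′ to 3′ on the gene's strand with the composite letters in capitals, because they let the letters be compared between synthetases and stress genes; holders of the letters include genes that did not pass in both lists.
Gars, chr6:55037960-55037989, + strand: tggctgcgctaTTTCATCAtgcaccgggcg
Tars, chr15:11399659-11399688, - strand: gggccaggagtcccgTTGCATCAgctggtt
Asns, chr6:7693214-7693243, - strand: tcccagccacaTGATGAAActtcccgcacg
Chac1, chr2:119351038-119351067, + strand: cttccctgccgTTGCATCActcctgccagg
Atf3, chr1:191183425-191183454, - strand: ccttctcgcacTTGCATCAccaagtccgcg
In 4 of the 5 shown the site reads on the opposite strand (TTGCATCA or TTTCATCA), and in Asns it reads forward. A match is a description of letters and not a binding site. The site core TGACGTCA was in none of the synthetase windows and in 1.55% of all promoters. The E-box CACGTG, which reads the same on both strands, was found for 3 synthetases, among them Farsb and Iars, and in 6.02% of all promoters. Of these 3 genes Iars fell and the others did not pass.

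Calls among genes that act beside the synthetases are given with the background of 17.0% higher and 19.1% lower, and counts near it are no result about these genes. Of 11 genes for tRNA editing, export and delivery to the ribosome 3 fell and none rose. Besides Xpot, these were Eef1d, an exchange factor of elongation (log2 fold change -0.63), and Aarsd1, a homologue of the alanyl editing domain (-0.57). Eef1a1, which carries charged tRNA to the ribosome, had the largest change among those that did not pass (0.27). Of 13 genes for amidation, formylation and translation in mitochondria 2 rose and 1 fell. Gfm2, a ribosome recycling factor, had 568, 647 and 562 normalised reads in GSK libraries, against 454, 435 and 377 in DMSO libraries, a log2 fold change of 0.49, and the initiation factor gene Mtif2 rose by 0.43. Tsfm, the exchange factor of mitochondrial elongation, had 242, 348 and 299 normalised reads in GSK libraries, against 387, 457 and 453 in DMSO libraries, a log2 fold change of -0.55. Qrsl1, the catalytic subunit of the amidotransferase that completes glutaminyl-tRNA after Ears2, did not pass (-0.41, limma adjusted p = 0.0665), and its other subunit genes Gatb and Gatc had log2 fold changes of -0.01 and -0.09.

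Of the 6 genes that make and deliver selenocysteinyl-tRNA, which starts from serine charged by Sars, 3 fell and none rose, against 19.1% lower and 17.0% higher among all tested genes. Sephs1 and Sephs2, of the selenophosphate synthetase family, had log2 fold changes of -0.67 and -0.45, and Eefsec, the selenocysteine elongation factor, of -0.56. Sephs2 had 397, 431 and 541 normalised reads in GSK libraries, against 617, 616 and 622 in DMSO libraries, without overlap. Pstk, Sepsecs and Secisbp2 did not pass, with log2 fold changes of -0.03, 0.04 and -0.13.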

How the data were processed

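Values deposited by the authors are signal in the form of normalised read counts per gene for 6 libraries. The submitters' processing notes name STAR, DESeq, GRCm38 and mm10 without saying what each was used for. No source used here gives the read counter or strand setting, and Smart-seq2 does not mark strand. The table repeats a gene's value over its transcripts (118098 lines), and 1 line per gene was kept. Nonzero values were whole multiples of 1 read's worth in their library, within 0.01 (100% of values), so whole reads were recovered. Genes with a mean of at least 10 were tested on log2(value + 1) by limma (version 3.58.1, R 4.3.3; trended, robust empirical Bayes), Benjamini-Hochberg adjusted at 0.05; this scale understates changes of low genes. edgeR 4.0.16 and DESeq2 1.42.0 were alternatives on recovered reads. The fit was also run on simulated data with few changed genes. It called 21.2% of changes of 0.5 on the log2 scale, 74.2% of those of 1 and 96.9% of those of 2. Of 138 calls there, 13 were false. Far more genes were called in the real data, so these rates may differ there. Lengths (longest APPRIS principal transcript) and coordinates came from GENCODE vM21 (GRCm38), promoters from RefSeq. CPM per kilobase was computed from the normalised values. Replicates of a group were further apart than counting noise (chi-square per degree of freedom 4.44 to 14.1). Members and lists were chosen with earlier results of these data known. All scaffolds, Atf4, Asns, Trib3, Xpot and the synthetases are given, except that 1 synthetase and 1 promoter stretch are counted but not reported here. Related lists of up to 6 genes are given whole, longer ones by up to 4 called genes of smallest p and the largest change not called. Atf3, Vldlr, Slc7a11, Phgdh, Psat1, Ppp1r15b, Vim, Gatb, Gatc, Gm15564, AA474408, Nrn1 and Lyrm4 were named outside this rule, after their values were seen.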

Additional observations from a re-analysis of the deposited data

How the results depend on the processing

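Alternatives covered the pseudocount, the low-value filter, the scaling, edgeR, DESeq2, a replicate block, protein coding genes alone, each library left out, and, chosen after seeing the data, totals without ribosomal-RNA-overlapping and globin genes. Of the 16 called synthetases 9 held their call in every one of the 17 alternatives that tested them, and none of the 16 changed direction. Some uncalled ones with changes near 0 did, such as Gars (-0.05, and 0.07 without GSK replicate 1). Calls of higher synthetases, 4 in the main analysis, numbered 2 with equal library totals and 1 to 5 with a library left out. Lower calls numbered 8 to 11 with a library left out. Cytosolic calls were then 1 to 4 higher and 3 to 6 lower, fewest lower (3) without DMSO replicate 2 and fewest higher (1) without GSK replicate 2. Mitochondrial calls were 0 to 1 higher and 5 to 6 lower, and none was higher with edgeR, DESeq2, TMM factors or equal totals (0 each). The mitochondrial median, -0.11, was -0.18 with equal totals, -0.068 with a mean of at least 100, -0.067 with the totals chosen after seeing the data, and -0.26 to -0.10 with a library left out. The cause of these shifts was not tested. The labels link same-numbered GSK and DMSO libraries by number alone. Correlations of their deviations were 0.013, -0.024 and 0.053, which with 3 libraries per group cannot decide whether they were paired. With the replicate block 2662 genes were higher and 2980 lower, against 2563 and 2883 in the main analysis. Of the synthetases 4 were then called higher and 12 lower. The libraries' depth limits Tarsl2, Yars2, Pars2 and Vars2 most, which averaged under 100 normalised reads.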
